A study of Mus musculus with 6 samples.

Results

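Of the 10191 genes in the deposited table, 61 carry a symbol of the glutathione, thioredoxin or NRF2 redox families: the glutathione transferases and peroxidases, the enzymes that make and reduce glutathione, the thioredoxins and thioredoxin-domain proteins, peroxiredoxins, glutaredoxins, methionine sulfoxide reductases, superoxide dismutases, catalase, sulfiredoxin, quinone reductases, haem oxygenases, sestrins, the NFE2L factors and KEAP1. They were chosen by their symbols. Gstp1, a glutathione transferase, and Sod1, the cytosolic superoxide dismutase, lie in the 60 rows listed ahead of Aaas, at rows 26 and 41, and were left out, which leaves 59 genes. The RNA came from lung tumours of mice, and both groups were of the same tumour model. There are 3 Ctrl and 3 SD libraries. The protocol names SD cages and home cages, in which the animals spent 20 hours a day, from 14:00 to 10:00, through the 7 weeks that followed a virus injection; that Ctrl mice were the ones in home cages is read from the group names. Lights were on from 8:00 to 20:00, and food and water were freely available to both groups. The series title names sleep deficiency; the labels leave the letters SD unexplained and do not say what the virus carried, how old the mice were, their strain or when tissue was taken. The genotype label carries a running number that differs in every library, while the design text names 1 genotype for both groups; the libraries were treated as 1 genotype.

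Cells hold hydrogen peroxide and oxidised proteins in check with a pair of thiol systems. In the first, glutathione made from glutamate, cysteine and glycine is used by peroxidases and transferases and reduced again by glutathione reductase with NADPH; in the second, thioredoxins kept reduced by thioredoxin reductases serve the peroxiredoxins and the methionine sulfoxide reductases. NRF2, encoded by Nfe2l2, switches on many of these genes from antioxidant response elements, and KEAP1 holds NRF2 low by marking it for degradation. The control of NRF2 is largely at the protein level, and the pathway is often altered by mutation in human lung adenocarcinoma.

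The core of the antioxidant response element, TGACNNNGC, was searched on both strands in windows from 250 bases before to 50 bases after each annotated gene start (RefSeq, GRCm38.p6). A window was at hand for 51 of the 59 genes, and 9 of these 51 (17.6%) held the core, against 17.2% of the 7895 tested genes that had a window and 12.4% of all 32851 windows. The core was found in 3 of the 14 genes with a window that were higher in SD in 4 of the 19 that were lower and in 2 of the 16 that did not pass. The windows of the 3 genes that rose are shown, with those of 2 that fell, Prdx1 as the peroxiredoxin of highest level and Nfe2l2 as the gene of NRF2; Sesn2 and Txndc5 also held the core and fell. Capitals mark the core, which reads GCNNNGTCA where it lies on the opposite strand.
Gclm (chr3:122245307-122245606, strand +): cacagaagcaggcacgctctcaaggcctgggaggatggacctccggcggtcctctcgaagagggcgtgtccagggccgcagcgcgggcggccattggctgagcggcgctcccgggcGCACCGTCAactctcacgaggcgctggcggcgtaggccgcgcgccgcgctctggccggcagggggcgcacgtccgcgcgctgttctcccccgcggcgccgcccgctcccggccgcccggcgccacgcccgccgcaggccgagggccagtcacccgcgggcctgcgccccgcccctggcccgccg
Srxn1 (chr2:152105274-152105573, strand +): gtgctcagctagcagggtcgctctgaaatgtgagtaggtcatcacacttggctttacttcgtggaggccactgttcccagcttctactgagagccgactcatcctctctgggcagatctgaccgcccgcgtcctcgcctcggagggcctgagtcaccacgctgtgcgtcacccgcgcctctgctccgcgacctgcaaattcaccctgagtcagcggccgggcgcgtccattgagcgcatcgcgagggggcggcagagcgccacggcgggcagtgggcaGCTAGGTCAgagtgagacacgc
Gstm5 (chr3:107895604-107895903, strand +): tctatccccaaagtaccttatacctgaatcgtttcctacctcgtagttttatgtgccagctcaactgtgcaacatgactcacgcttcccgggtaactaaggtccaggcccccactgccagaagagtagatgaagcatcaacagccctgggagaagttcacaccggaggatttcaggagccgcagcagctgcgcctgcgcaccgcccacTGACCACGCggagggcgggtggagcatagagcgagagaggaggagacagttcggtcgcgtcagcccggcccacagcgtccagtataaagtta
Prdx1 (chr4:116685349-116685648, strand +): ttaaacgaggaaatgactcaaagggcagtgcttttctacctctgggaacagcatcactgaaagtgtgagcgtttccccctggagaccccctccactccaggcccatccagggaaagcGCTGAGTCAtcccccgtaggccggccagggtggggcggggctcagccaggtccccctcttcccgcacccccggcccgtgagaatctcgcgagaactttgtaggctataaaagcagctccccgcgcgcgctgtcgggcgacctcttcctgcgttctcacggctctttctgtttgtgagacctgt
Nfe2l2 (chr2:75704614-75704913, strand -): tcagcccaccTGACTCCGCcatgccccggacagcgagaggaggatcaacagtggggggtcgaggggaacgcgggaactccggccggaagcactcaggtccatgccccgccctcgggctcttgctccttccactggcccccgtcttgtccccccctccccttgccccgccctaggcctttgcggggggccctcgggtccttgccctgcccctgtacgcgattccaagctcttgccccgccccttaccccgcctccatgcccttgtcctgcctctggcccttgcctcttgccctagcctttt
The core begins 134 bases before the start of Gclm, 42 before that of Gstm5, 133 before that of Prdx1 and 240 before that of Nfe2l2. In Srxn1 it begins at base 29, counting the start as base 1. A match describes the letters in this window and is not a measured binding site; sequence farther away was not searched.

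Levels are in CPM, the reads of a gene divided by all reads of its library and brought to 1 scale for all libraries. The libraries held 6511192 to 7417095 reads, and 3 reads, taken as the floor, equal 0.404 to 0.461 CPM. Gene coordinates are those of GENCODE M21 on GRCm38, and a level per kb is the CPM divided by the exon length. Means are given ± s.d. over 3 libraries per group. The titles call the libraries biological replicates without saying whether each came from its own mouse, and the p-values cover only the spread among these 6 samples. Outside the first 60 rows, 1005 of 10131 rows stood outside the longest alphabetical run, and 978 of these had an SD mean at least 2 times the Ctrl mean, against 30 of the 9126 rows in order. Among the redox genes, Gclm, Gpx2, Gpx3, Gsta1, Gstm2, Gstm4, Nqo1 and Srxn1 stood out of order, all 8 with an SD mean at least 2 times the Ctrl mean; Gsto2, the ninth redox gene at that ratio, stood in order. All values of the 59 genes were whole reads, within 0.01 read, and the reason for the row order was not tested.

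Redox genes moved in both directions. The 3 genes that make glutathione, 5 glutathione transferases, Gpx2, Gpx3, sulfiredoxin, Nqo1 and Hmox1 were higher in SD. The peroxiredoxins Prdx1, Prdx2, Prdx3 and Prdx4, catalase, Gpx1, Txnip, Hmox2, Msrb1, Msrb3 and Sesn2 were lower. In bulk tissue fewer cells of a type and less RNA per cell cannot be told apart. Of the 59 genes 57 were tested, Gstm2 and Gsto2 being too low. In limma's moderated test with Benjamini-Hochberg adjustment over all 10004 genes tested, 17 of the 57 were higher in SD (29.8%), 20 were lower (35.1%) and 20 did not pass an adjusted p of 0.05. Over all tested genes 28.1% were higher and 28.5% lower, 56.6% in all, so the share of redox genes called was near that of the whole table. The median log2 difference was -0.06 for the redox genes and -0.01 for all tested genes. Separation without overlap, all SD libraries above or all below the Ctrl libraries, was seen in 18 and 21 of the 57, against 30.0% and 30.4% of all tested genes, 60.3% in all. A log2 difference of at least 1 was reached by 6 genes that rose and 6 that fell, against 7.76% and 6.58% of all tested genes. Glrx passed the filter on low values only through the Ctrl libraries, and Nqo1 only with the help of the SD libraries. These were the groups where each was high, so the filter favoured a difference in that direction and neither call is support for the counts. Of the 55 genes that reached 1 CPM in every library, 16 were higher, 19 were lower and 20 did not pass, with 5 that rose and 5 that fell by at least 1.

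Markers of lung cell types moved in the same comparison. Type 2 alveolar markers, as a check of the labelled tissue, were well detected, with Sftpc at 4034 ± 266 CPM in Ctrl and 1179.5 ± 37.6 CPM in SD. All 7 of the 10 listed type 2 markers that were tested fell, and their summed level went from 4937 to 5449 CPM in Ctrl to 1359 to 1441 CPM in SD. All 4 of 10 listed alveolar macrophage markers that were tested fell, from 346 to 361 CPM summed to 66.3 to 75.6. At least 1 of these 4 had an SD mean below the floor of 3 reads. It passed the filter on low values only through Ctrl, where it was high, so its fall gives no support to that count. Ciliated markers rose in 7 of 7 cases (8 listed), summed from 349 to 366 CPM to 1357 to 1378 CPM. Both tested club and secretory markers, Aldh1a1 and Bpifa1, rose (7 listed), from 372 to 404 CPM summed to 1162 to 1218 CPM. The lower of them had a Ctrl mean of 1.76 CPM, so the Ctrl sum was nearly all 1 gene. Scgb1a1, Scgb3a2, Cyp2f2, Muc5b and Cbr2 were not in the table. Endothelial markers rose in 6 of 6 cases (8 listed), from 868 to 891 CPM to 2715 to 2803 CPM, and smooth muscle and pericyte markers in 7 of 8, from 468 to 484 CPM to 1172 to 1177 CPM. Type 1 markers rose in 3 and fell in 3 of 6 cases, B cell markers rose in 2 of 3, T cell markers in 2 of 2, and the 1 neutrophil marker tested fell. The groups overlapped for 1 of the 2 T cell markers and for the neutrophil marker. A T cell marker with a Ctrl mean of 0.733 CPM passed the filter only with the help of SD, where it was high. None of the markers read was at 0 in any library. The part of these shifts in the redox differences was not tested.

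**Figure D1:**
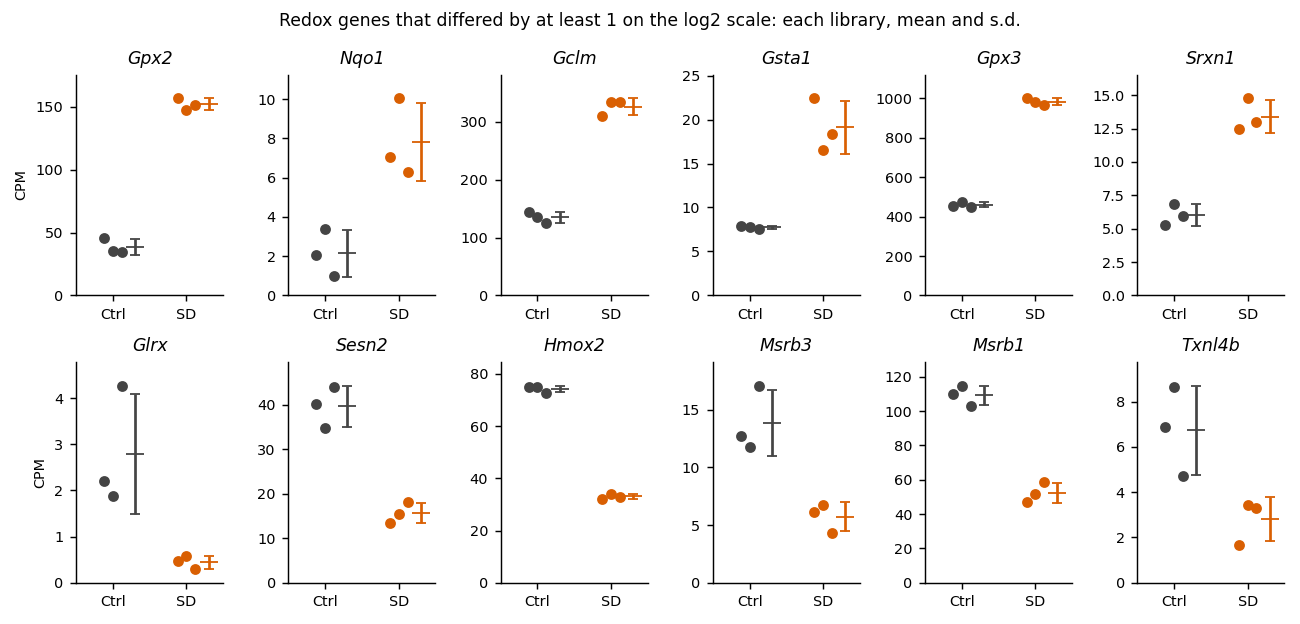
Each panel plots 1 redox gene, with CPM on the y axis and the 3 Ctrl and 3 SD libraries as points; the bar beside them is the mean with its s.d. The upper row holds the 6 genes that rose and the lower row the 6 that fell by at least 1 on the log2 scale, and in all 12 the groups do not overlap. Glrx passed the filter on low values only through Ctrl and Nqo1 only with the help of SD.

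Of the 3 regulators tested, Nfe2l2 alone passed. Nfe2l2, the gene of NRF2 (chromosome 2, 75675513 to 75704641), stood at 128, 158 and 127 CPM in Ctrl and 103, 106 and 122 CPM in SD. All SD libraries lay below the Ctrl libraries, and Nfe2l2 fell 1.25-fold (log2 difference -0.32 ± 0.078 SE, adjusted p = 7.7e-04). Keap1, its inhibitor, was at 38.2, 37.5 and 33.5 CPM in Ctrl and 28.3, 40.6 and 31.7 CPM in SD. The Keap1 groups overlapped and the gene did not pass (log2 difference -0.13 ± 0.12 SE, adjusted p = 0.38). Nfe2l1, a related factor that controls proteasome genes, was at 249 ± 13.1 CPM in Ctrl and 254 ± 8.12 CPM in SD (adjusted p = 0.65).

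Genes of glutathione synthesis rose, while the gene of glutathione reductase did not pass. Gclc encodes the catalytic subunit of glutamate-cysteine ligase, the rate-limiting step (chromosome 9, 77754535 to 77794485), and Gclm its modifier subunit (chromosome 3, 122245557 to 122270732). Gclc was at 539, 574 and 553 CPM in Ctrl and 903, 877 and 879 CPM in SD, with every SD library above every Ctrl library, and rose 1.60-fold (log2 difference 0.67 ± 0.041 SE, adjusted p = 6.5e-17). Gclm was at 145, 136 and 126 CPM in Ctrl and 309, 334 and 335 CPM in SD, again without overlap, and rose 2.41-fold (log2 difference 1.26 ± 0.059 SE, adjusted p = 2.3e-20). The modifier subunit changed by more than the catalytic one on this scale, a difference that was not itself tested. Per kb of exon Gclc remained the higher of the pair, at 147 CPM per kb in Ctrl and 235 CPM per kb in SD, and Gclm was at 21.5 CPM per kb in Ctrl and 51.8 CPM per kb in SD. Gss, which completes glutathione by adding glycine, was at 51.6, 53.9 and 59.1 CPM in Ctrl and 77.1, 62.9 and 74.3 CPM in SD and rose 1.30-fold (log2 difference 0.37 ± 0.092 SE, adjusted p = 7.6e-04). Of its exon bases 6.68% are shared with Acss2 on the opposite strand, which was also higher. Gsr, the reductase, was at 27.7, 29.4 and 28.8 CPM in Ctrl and 26.9, 28.7 and 25.1 CPM in SD with overlapping groups (log2 difference -0.09 ± 0.12 SE, adjusted p = 0.56).

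Glutathione transferases join glutathione to electrophiles, and 5 of the 7 tested rose while 2 did not pass. Gsta1, of the alpha class, was at 7.87, 7.82 and 7.55 CPM in Ctrl and 22.4, 16.5 and 18.4 CPM in SD. The SD libraries were all above the Ctrl libraries, and Gsta1 rose 2.47-fold (log2 difference 1.19 ± 0.18 SE, adjusted p = 7.1e-07). Gstm5, of the mu class, was at 57.7, 71.6 and 66.1 CPM in Ctrl and 119, 122.8 and 129 CPM in SD and rose 1.90-fold (log2 difference 0.92 ± 0.080 SE, adjusted p = 1.4e-12). The mu class genes lie side by side on chromosome 3, from Gstm5 at 107895821 to Gstm4 at 108044894. Within that run Gstm4 rose 2.12-fold from 9.32 ± 0.388 CPM (adjusted p = 7.6e-06), and Gstm3 rose 1.58-fold from 8.86 ± 0.281 CPM (adjusted p = 0.0085). Without SD replicate 2, Gstm3 no longer passed (log2 difference 0.49, adjusted p = 0.0534). Gstm2, not tested, had 2 reads in each Ctrl library and 8, 12 and 6 reads in the SD libraries. Mu and alpha class genes are close paralogs and can share reads, so single members of these classes are uncertain. Gsto1, of the omega class, rose 1.91-fold (adjusted p = 1.4e-05); it overlaps the cilium gene Cfap43 on the opposite strand without shared exon bases, and Cfap43 rose 4.01-fold. Gsto2 was at 0.966, 0.135 and 0.427 CPM in Ctrl and 1.38, 1.0 and 0.747 CPM in SD, close to the floor. Gstz1, a transferase of tyrosine breakdown, did not pass (-0.42 ± 0.24 SE on the log2 scale), although its SD libraries all lay below the Ctrl libraries. Mgst3, a membrane-bound transferase, was at 6.21, 6.88 and 4.70 CPM in Ctrl and 2.15, 7.32 and 2.54 CPM in SD, and the second SD library lay above all others. Mgst3 did not pass (adjusted p = 0.073), but was lower without SD replicate 2 (log2 difference -1.04, adjusted p = 0.00209). The excluded Gstp1 stood at 73, 70.5 and 72.2 CPM in Ctrl and 163, 176 and 161 CPM in SD as deposited, and none of its SD values are whole reads.

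Glutathione peroxidases use glutathione to reduce peroxides, and their members split. Gpx2, an epithelial form (chromosome 12, 76792333 to 76795554), was at 45.7, 35.5 and 34.8 CPM in Ctrl and 157, 147 and 152 CPM in SD. Every SD library stood above 147 CPM and every Ctrl library below 46 CPM, and Gpx2, with the largest log2 difference of the 57 genes, rose 3.93-fold (log2 difference 1.96 ± 0.089 SE, adjusted p = 6.6e-21). Gpx3, the secreted form (chromosome 11, 54902453 to 54910377), was at 456, 473 and 449 CPM in Ctrl and 1001, 982 and 967 CPM in SD and rose 2.14-fold (log2 difference 1.10 ± 0.041 SE, adjusted p = 2.4e-23). Gpx1, the general cytosolic form (chromosome 9, 108338903 to 108340343), went the other way, at 375, 416 and 432 CPM in Ctrl and 258, 254 and 269.9 CPM in SD. Its groups did not overlap, and it fell 1.56-fold (log2 difference -0.64 ± 0.053 SE, adjusted p = 3.5e-13). Per kb of exon the order of the pair turned over, since Gpx1 exceeded Gpx3 in 3 of 3 Ctrl libraries and Gpx3 exceeded Gpx1 in 3 of 3 SD libraries. Gpx3 was at 253 CPM per kb in Ctrl and 542 CPM per kb in SD, and Gpx1 at 283 CPM per kb in Ctrl and 181 CPM per kb in SD. Gpx4, which protects membrane lipids from peroxidation and whose loss leads to ferroptosis, was at 184, 216 and 206 CPM in Ctrl and 195, 197 and 189.9 CPM in SD. Its groups overlapped and the log2 difference was -0.06 ± 0.060 SE (adjusted p = 0.45). Gpx7 and Gpx8, both of the endoplasmic reticulum, did not pass (adjusted p = 0.16 and adjusted p = 0.051). Gpx8 was called higher in SD without SD replicate 3 (log2 difference 0.46, adjusted p = 0.0103), by edgeR on recovered reads (log2 difference 0.36, adjusted p = 0.0422) and with a minimum of 5 CPM (log2 difference 0.33, adjusted p = 0.0455).

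**Figure D2:**
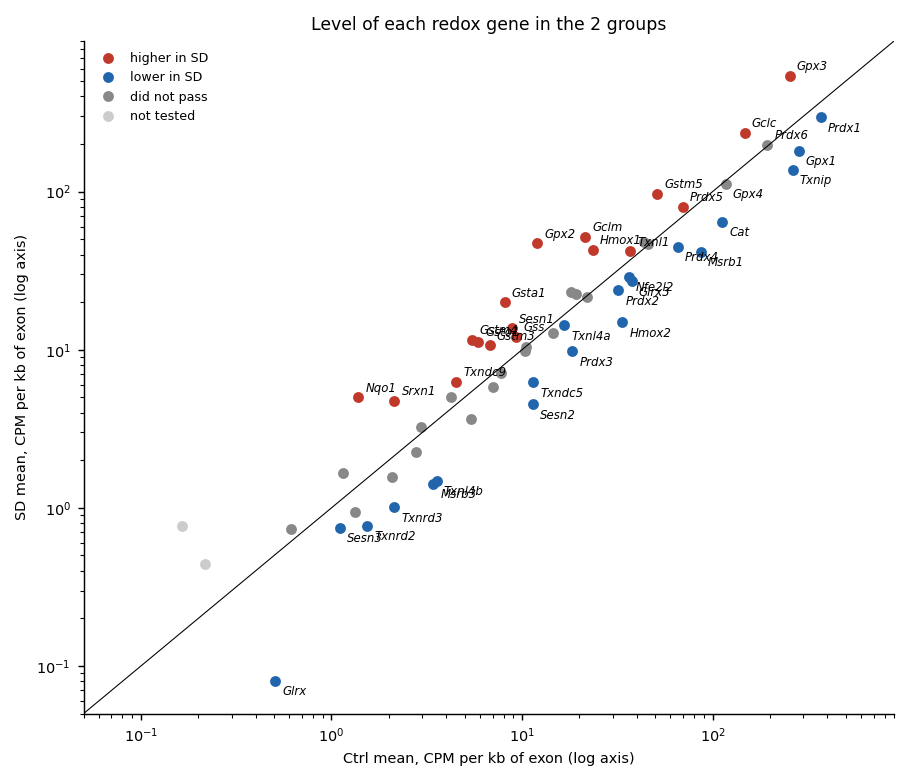
Mean CPM per kb of exon in Ctrl (x axis) and SD (y axis), both on log axes, for the 59 redox genes, 1 point each, with the diagonal marking equal levels. Gpx3 lies above the diagonal at 542 in SD, Prdx1, Gpx1 and Txnip lie below it, and Glrx at the lower left has an SD mean near the floor of 3 reads.

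In the thioredoxin system 3 of 5 genes fell and 2 did not pass. Txnip, which binds thioredoxin and blocks it and also restrains glucose uptake (chromosome 3, 96557957 to 96561883), was at 804, 842 and 817 CPM in Ctrl and 421, 417 and 453 CPM in SD. The groups were far apart, and Txnip fell 1.91-fold (log2 difference -0.93 ± 0.044 SE, adjusted p = 2.4e-20). Txnrd3, a reductase best known from testis, was at 7.31, 4.04 and 6.84 CPM in Ctrl and 1.23, 3.30 and 4.03 CPM in SD and fell 2.12-fold (adjusted p = 0.0065). Txnrd2, the mitochondrial reductase, was at 8.83, 5.12 and 6.41 CPM in Ctrl and 2.76, 4.74 and 2.69 CPM in SD and fell 2.0-fold (adjusted p = 0.0066). Both rest on few reads, and each depended on 1 library: Txnrd3 was not called without SD replicate 1 (log2 difference -0.57, adjusted p = 0.0849), nor Txnrd2 without Ctrl replicate 1 (log2 difference -0.65, adjusted p = 0.0704). Txnrd1, the cytosolic reductase and an NRF2 target, was at 17.1, 27.5 and 17.8 CPM in Ctrl and 20.1, 24.7 and 24.1 CPM in SD. Its groups overlapped, with the second Ctrl library the highest of the 6 (log2 difference 0.16 ± 0.16 SE, adjusted p = 0.4). Txn2, mitochondrial thioredoxin, was at 29.8, 31 and 28.2 CPM in Ctrl and 32.4, 22.5 and 19 CPM in SD and did not pass (adjusted p = 0.085), but was lower without SD replicate 1 (log2 difference -0.50, adjusted p = 0.00354). Txn1, the cytosolic thioredoxin, was not analysed here.

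Among 9 other proteins with a thioredoxin domain, 2 rose, 3 fell and 4 did not pass. Txndc5, a disulfide isomerase of the endoplasmic reticulum, was at 55.5, 46.1 and 52.1 CPM in Ctrl and 22.4, 23.8 and 37.5 CPM in SD. It fell 1.84-fold (log2 difference -0.89 ± 0.13 SE, adjusted p = 4.5e-07), the third SD library being the highest of its group, and shares 4.99% of its exon bases with Bmp6 on the opposite strand, which was higher. Txndc9, a partner of the chaperonin that folds actin and tubulin, was at 43.2, 40.9 and 39 CPM in Ctrl and 56.2, 58 and 57.1 CPM in SD and rose 1.39-fold (log2 difference 0.47 ± 0.096 SE, adjusted p = 7.5e-05). Txnl1, linked to the proteasome, rose 1.13-fold (adjusted p = 0.0045). Txnl4b, a splicing-related protein, was at 6.90, 8.63 and 4.70 CPM in Ctrl and 1.69, 3.44 and 3.29 CPM in SD and fell 2.40-fold (adjusted p = 0.0014). Its relative Txnl4a, a spliceosome component, had overlapping groups and a log2 difference of -0.22 that just passed (adjusted p = 0.045). Leaving out Ctrl replicate 1 (log2 difference -0.14, adjusted p = 0.251), Ctrl replicate 3 (log2 difference -0.23, adjusted p = 0.0754) or SD replicate 1 (log2 difference -0.11, adjusted p = 0.345) ended that call. So did a smaller pseudocount of 0.1 CPM (log2 difference -0.22, adjusted p = 0.0505) and DESeq2 on recovered reads (log2 difference -0.21, adjusted p = 0.106). Txndc11, Txndc12, Txndc15 and Txndc17 had log2 differences of -0.29, -0.18, -0.02 and 0.33 and did not pass.

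Peroxiredoxins reduce hydrogen peroxide with thioredoxin, and 4 of the 6 fell. Prdx1, which had the highest level per kb of the 59 genes in Ctrl (chromosome 4, 116685544 to 116700822), was at 1049.9, 1199.7 and 1118 CPM in Ctrl and 911, 858 and 935 CPM in SD. It fell 1.25-fold (log2 difference -0.32 ± 0.043 SE, adjusted p = 7.8e-08), and in SD it came second to Gpx3, with 369 CPM per kb in Ctrl and 296 CPM per kb in SD. Prdx4, the form of the endoplasmic reticulum, was at 138, 149.5 and 127 CPM in Ctrl and 90.6, 97.7 and 95.2 CPM in SD. Prdx4 fell 1.46-fold (log2 difference -0.54 ± 0.071 SE, adjusted p = 3.3e-08), with no overlap between groups. Prdx3, the mitochondrial form, fell 1.87-fold from 27 ± 1.93 CPM (adjusted p = 5.7e-06). Prdx2, a cytosolic form, fell 1.34-fold from 97.5 ± 12.2 CPM (adjusted p = 9.8e-05); it shares 5.67% of its exon bases with Junb, which was higher, and 5.8% with Rnaseh2a, which was lower. Prdx5, found in several compartments, went from 149 ± 16.9 to 172 ± 3.38 CPM, a 1.15-fold rise (adjusted p = 0.0084). Of its exon bases 19.1% are shared with Trmt112 on the opposite strand. Leaving out Ctrl replicate 2 ended the call (log2 difference 0.12, adjusted p = 0.13). Prdx6, a peroxiredoxin that uses glutathione and also acts on surfactant phospholipids, was at 869, 973 and 940.0 CPM in Ctrl and 951, 979.6 and 931 CPM in SD and did not pass (log2 difference 0.04 ± 0.042 SE, adjusted p = 0.4). Srxn1, sulfiredoxin, restores peroxiredoxins that were overoxidised and is a known NRF2 target. It was at 5.24, 6.88 and 5.98 CPM in Ctrl and 12.4, 14.8 and 13 CPM in SD. The groups did not overlap, and Srxn1 rose 2.22-fold (log2 difference 1.04 ± 0.20 SE, adjusted p = 4.0e-05).

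Glutaredoxins and methionine sulfoxide reductases, which repair oxidised cysteines and methionines, fell in 4 of 7 cases, and 3 did not pass. Msrb1, a selenoprotein of cytosol and nucleus (chromosome 17, 24736642 to 24742778), was at 110.1, 114 and 103 CPM in Ctrl and 46.8, 51.5 and 58.6 CPM in SD. Msrb1 fell 2.09-fold (log2 difference -1.05 ± 0.085 SE, adjusted p = 2.2e-13) and its groups did not overlap. Msrb3, a form of the endoplasmic reticulum and mitochondria, was at 12.7, 11.7 and 17.1 CPM in Ctrl and 6.14, 6.74 and 4.33 CPM in SD and fell 2.41-fold (adjusted p = 2.2e-05). Glrx3, which handles iron-sulfur clusters, was at 172, 199 and 195 CPM in Ctrl and 139, 140.5 and 129.7 CPM in SD and fell 1.38-fold (adjusted p = 1.1e-07). Glrx, the cytosolic glutaredoxin, was at 2.21, 1.89 and 4.27 CPM in Ctrl and 0.461, 0.574 and 0.299 CPM in SD. The SD values are 2 to 4 reads a library, and 60 reads in Ctrl against 9 in SD give a ratio of 6.20 with a 95% counting interval of 3.06 to 14.2 (exact binomial), which covers counting error only. Glrx passed the filter on low values only through Ctrl, where it was high, so its call by limma (adjusted p = 5.0e-04) gives no support to the count of falls; without it 3 of the other 6 fell. Msra, which repairs the other isomer of the oxidised methionine, was at 9.39, 8.36 and 8.97 CPM in Ctrl and 3.99, 9.33 and 7.02 CPM in SD, the first SD library being the lowest of its group and the second lying within the Ctrl range. Msra did not pass (adjusted p = 0.14), but was lower without SD replicate 2 (log2 difference -0.64, adjusted p = 0.0273), while without SD replicate 1 its log2 difference was -0.12 (adjusted p = 0.68). Glrx5 and Glrx2, mitochondrial forms, did not pass (adjusted p = 0.079 and adjusted p = 0.47). Glrx5 was higher without Ctrl replicate 1 (log2 difference 0.17, adjusted p = 0.0485) and without SD replicate 3 (log2 difference 0.19, adjusted p = 0.0238).

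Catalase fell while the superoxide dismutases tested did not pass. Cat, the peroxisomal enzyme that splits hydrogen peroxide (chromosome 2, 103453849 to 103485160), was at 287, 290.0 and 299.5 CPM in Ctrl and 176, 168 and 160.2 CPM in SD. The highest SD library lay far below the lowest Ctrl library, and Cat fell 1.74-fold (log2 difference -0.80 ± 0.056 SE, adjusted p = 3.2e-15). Sod2, the mitochondrial dismutase, was at 221, 234 and 200.3 CPM in Ctrl and 207, 218 and 218 CPM in SD. Its groups overlapped (log2 difference -0.02 ± 0.059 SE, adjusted p = 0.77). Sod3, the extracellular dismutase of vessel walls and airways, was at 16.1, 13.8 and 17.5 CPM in Ctrl and 18.1, 19.2 and 19.1 CPM in SD. All SD values were above the Ctrl values, but the difference did not pass (log2 difference 0.24 ± 0.16 SE, adjusted p = 0.19). The excluded Sod1 stood at 239.9, 221 and 223 CPM in Ctrl and 499.9, 500.4 and 492 CPM in SD as deposited, with 2 values that are not whole reads.

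Both haem oxygenases moved, in opposite directions, and Nqo1 rose. Hmox1, the inducible enzyme that breaks haem into biliverdin, iron and carbon monoxide (chromosome 8, 75093621 to 75100589), was at 38.1, 44 and 41.7 CPM in Ctrl and 82, 68.7 and 74.4 CPM in SD. It rose 1.82-fold (log2 difference 0.85 ± 0.094 SE, adjusted p = 8.2e-10). Hmox2, the constitutive form (chromosome 16, 4726361 to 4766742), was at 74.9, 75.1 and 72.8 CPM in Ctrl and 32.3, 33.9 and 33 CPM in SD, with libraries of a group close together, and fell 2.25-fold (log2 difference -1.14 ± 0.094 SE, adjusted p = 3.1e-13). Of the exon bases of Hmox2, 40.2% are shared with Cdip1 on the opposite strand, and without a strand setting their reads cannot be told apart; Cdip1 was at 23.8 ± 2.66 CPM in Ctrl and 23.1 ± 0.348 CPM in SD and did not pass. Nqo1, a quinone reductase and a classical NRF2 target (chromosome 8, 107388225 to 107403206), was at 2.07, 3.37 and 0.997 CPM in Ctrl and 7.06, 10.0 and 6.28 CPM in SD. These values rest on 7 to 25 reads in Ctrl and 42 to 70 in SD, and Nqo1 rose 3.63-fold (log2 difference 1.53 ± 0.28 SE, adjusted p = 1.4e-05). Nqo1 passed the filter on low values only with the help of SD, where it was high, so its call gives no support to the count of rises.

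The sestrins, stress-induced proteins that restrain mTORC1 signalling and aid antioxidant defence, split as well. Sesn2, which senses leucine, was at 40.2, 34.8 and 44 CPM in Ctrl and 13.5, 15.5 and 18.1 CPM in SD. Sesn2 fell 2.53-fold (log2 difference -1.29 ± 0.14 SE, adjusted p = 3.4e-10), and Sesn3 fell 1.49-fold from 17 ± 0.743 CPM (adjusted p = 0.0081). Sesn1, a p53 target, was at 28.6, 40.0 and 37.3 CPM in Ctrl and 56.5, 59 and 48.6 CPM in SD. Its SD libraries all exceeded its Ctrl libraries, and it rose 1.55-fold (log2 difference 0.63 ± 0.11 SE, adjusted p = 1.2e-05).

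**Figure D3:**
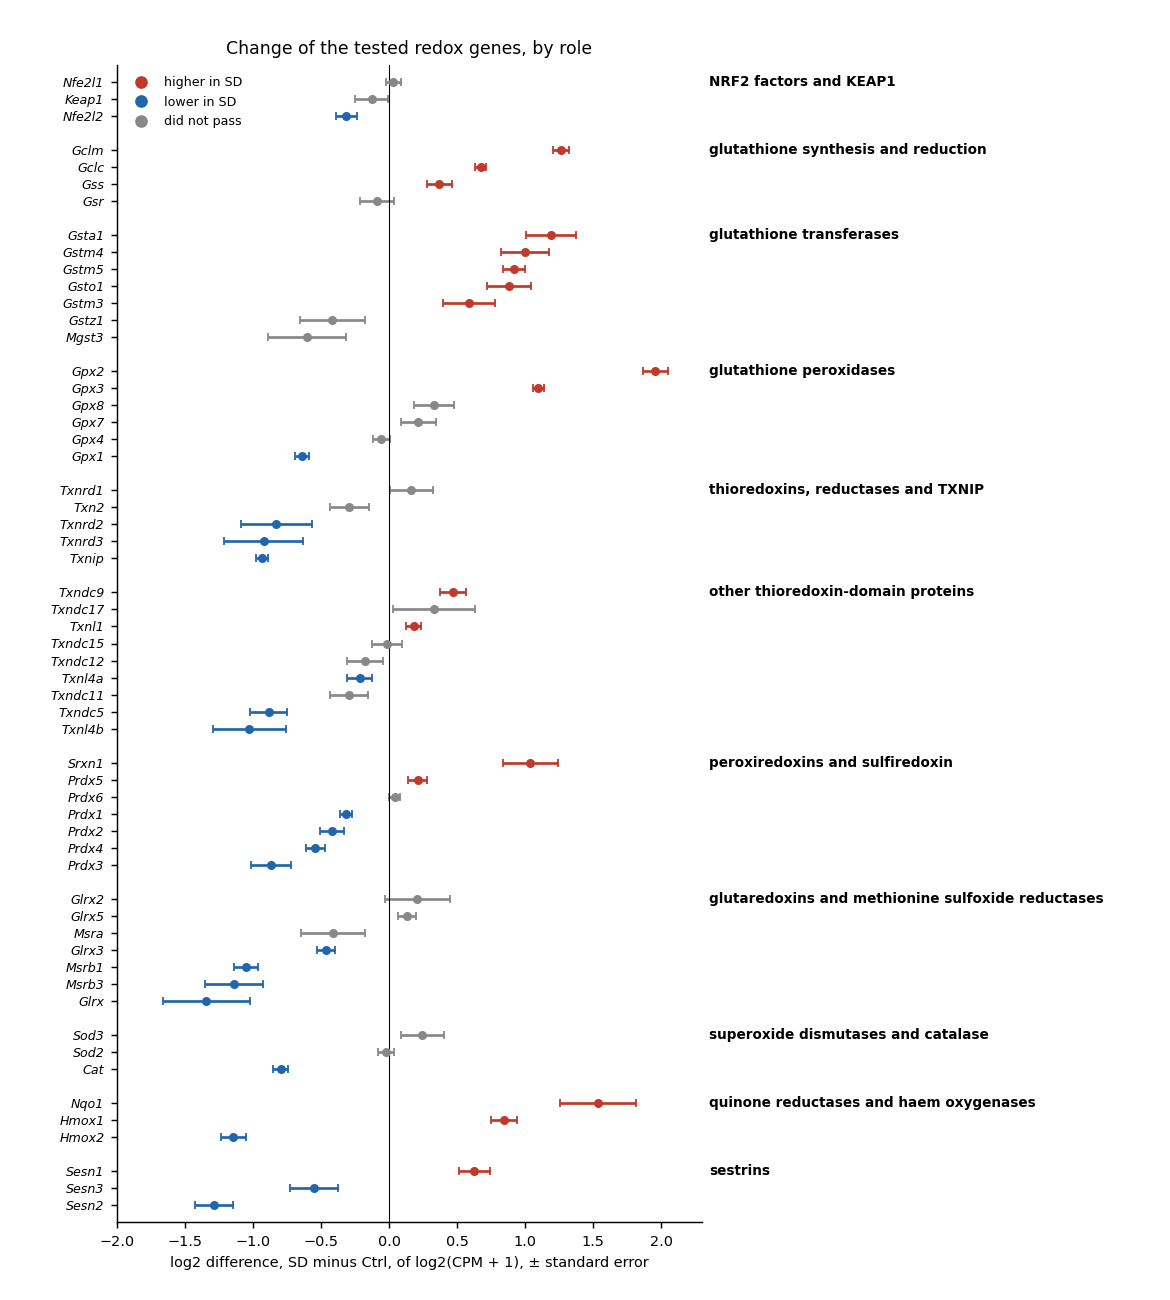
The log2 difference of log2(CPM + 1), SD minus Ctrl, with its standard error (x axis) for each of the 57 tested redox genes, grouped by role. Genes of glutathione synthesis and the transferases lie mostly to the right of 0, and peroxiredoxins, thioredoxin reductases and methionine sulfoxide reductases mostly to the left.

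**Figure D4:**
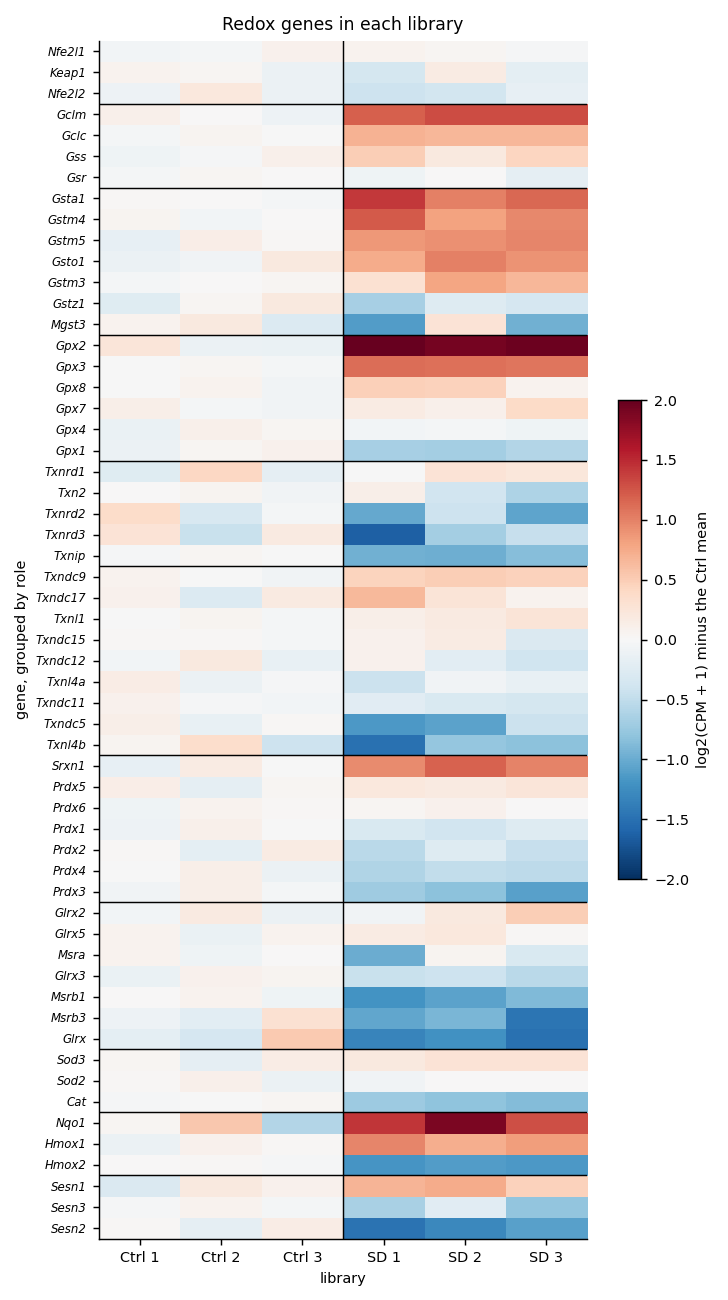
Each cell is the log2(CPM + 1) of 1 redox gene (rows, grouped by role) in 1 library (columns) minus the Ctrl mean of that gene. The 3 SD columns are alike for most genes, with the second SD library apart for Mgst3, the first for Msra and the third for Txndc5.

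Protein chemistry and location cut across these branches; they were looked at after the values were seen. Of the 8 selenoproteins among the redox genes, 2 rose (Gpx2 and Gpx3), 4 fell (Gpx1, Msrb1, Txnrd2 and Txnrd3) and 2 did not pass (Gpx4 and Txnrd1). The calls of Txnrd2 and Txnrd3 were each lost when a single library was left out, as given above. Of 6 mitochondrial members, Prdx3 and Txnrd2 fell and 4 did not pass. Of 6 members of the endoplasmic reticulum, Prdx4 and Txndc5 fell and 4 did not pass. Msrb3, which has forms in both places and fell, was counted in neither. Prdx5, which is found in several compartments and rose, was not counted as mitochondrial. Secreted Gpx3 rose and extracellular Sod3 did not pass. Beside these small counts stand 28.1% higher and 28.5% lower of all tested genes, and a departure from those shares was not tested.

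Related genes outside the symbol rule were read from lists, leaving out the first 60 rows, beside the same 28.1% higher and 28.5% lower of all tested genes. Listed genes that are absent from the deposited data could not be read. Ephx1 and Adh7, listed as NRF2 targets, lie in the first 60 rows and were left out. Of 15 tested genes listed as NRF2 targets (23 listed) 9 were higher and 3 lower, with a median log2 difference of 0.52. The list does not hold all NRF2 targets. Redox genes, such as Srxn1, which rose, and Prdx1, which fell, were not counted in it. Nor were the genes of NADPH supply below, of which Me1, Idh1, Tkt and Taldo1 fell, even where NRF2 acts on them. Pir, an iron-binding nuclear protein, rose 3.0-fold from 27.4 ± 2.88 CPM (adjusted p = 4.7e-16). Slc7a11, the cystine carrier that feeds glutathione synthesis, was at 5.52, 4.31 and 4.42 CPM in Ctrl and 12.7, 13.2 and 14.3 CPM in SD and rose 2.83-fold (adjusted p = 1.2e-06). Aldh3a1, an aldehyde dehydrogenase, rose 4.43-fold (adjusted p = 1.0e-07) and Abcc3, an exporter of conjugates, 2.26-fold (adjusted p = 2.4e-10). Fth1, the ferritin heavy chain, Blvra and Ptgr1 were the 3 that fell. All 4 genes named with a fold stood out of alphabetical order in the table, as did Bach2, Ggt7, Slc3a2 and Me3 of the other lists.

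Genes listed under the supply of NADPH, the reductant of both thiol systems, were lower in 13 of 18 tested cases (20 listed) and higher in 2 (median -0.43). Me1, cytosolic malic enzyme, was at 124, 114 and 114 CPM in Ctrl and 34.2, 31.6 and 31.2 CPM in SD and fell 3.63-fold (adjusted p = 4.0e-20). H6pd, which makes NADPH in the endoplasmic reticulum, fell 2.51-fold (adjusted p = 1.0e-11), Nnt, the mitochondrial transhydrogenase, 2.40-fold (adjusted p = 1.1e-07) and Aldh1l1, of folate metabolism, 2.36-fold (adjusted p = 1.3e-10). The 2 that rose were Me3 and Mthfd1l, both mitochondrial. Not every gene of the list makes NADPH itself, and Mthfd1l does not.

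Precursor and breakdown genes of glutathione went both ways, 7 higher and 8 lower of 20 tested (27 listed, median -0.23). Slc7a11 is among these 7 and is also counted with the NRF2 targets above. Slc3a2, the partner chain of Slc7a11, rose 2.21-fold (adjusted p = 2.7e-08), and Ggt7, a gamma-glutamyltransferase family member, rose 3.83-fold (adjusted p = 1.6e-08). Cndp2, a dipeptidase, fell 3.70-fold (adjusted p = 5.3e-09). The peptidase gene Anpep, with 36 to 44 reads a library in Ctrl and 5 to 11 in SD, and Ggt5 are counted among the 8 but passed the filter only through Ctrl. Among 17 tested partners of NRF2 and factors of its turnover (18 listed) 9 were higher and 3 lower (median 0.17). Bach2, a repressor that shares DNA sites with NRF2, rose 2.05-fold and Mafg, a dimer partner, 1.60-fold (adjusted p = 4.9e-07 and adjusted p = 2.8e-08); Btrc, of a ligase that degrades NRF2, rose 1.53-fold, and Dpp3, which competes for KEAP1, fell 1.42-fold (adjusted p = 1.1e-06 and adjusted p = 8.1e-05).

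In a list of selenoprotein synthesis genes and other selenoproteins, 4 of 7 tested genes (22 listed) were lower and 1 was higher (median -0.39), all 5 of them synthesis genes. Sephs2, which makes the selenium donor, was at 62, 56.2 and 54.8 CPM in Ctrl and 22.3, 34.9 and 31.4 CPM in SD and fell 1.95-fold (adjusted p = 1.2e-08). Secisbp2l, Sepsecs and Sephs1 fell 1.65-fold, 1.51-fold and 1.32-fold (adjusted p = 6.2e-12, 0.0027 and 0.003). Sources of oxidants were lower in 6 of 13 tested cases (25 listed) and higher in 3 (median -0.23). Cybb, which carries the electrons of the oxidase in phagocytes, was at 27.1, 27.8 and 31.8 CPM in Ctrl and 3.07, 3.59 and 2.84 CPM in SD and fell 9.12-fold (adjusted p = 1.7e-15); Maob fell 4.07-fold (adjusted p = 2.8e-10). Nos2, an inducible nitric oxide synthase, and Ncf1, a subunit of the phagocyte oxidase, are among the 6 but passed the filter only through Ctrl. Nos2 had 24, 21 and 18 reads in Ctrl and 1, 3 and 10 reads in SD, and its ratio of Ctrl to SD went from 4.19 to 9.94 without SD replicate 3. Ncf1 had 21, 19 and 23 reads in Ctrl and 5, 8 and 4 reads in SD. Nox4, an oxidase that makes hydrogen peroxide, rose 1.91-fold (adjusted p = 1.4e-04).

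**Figure D5:**
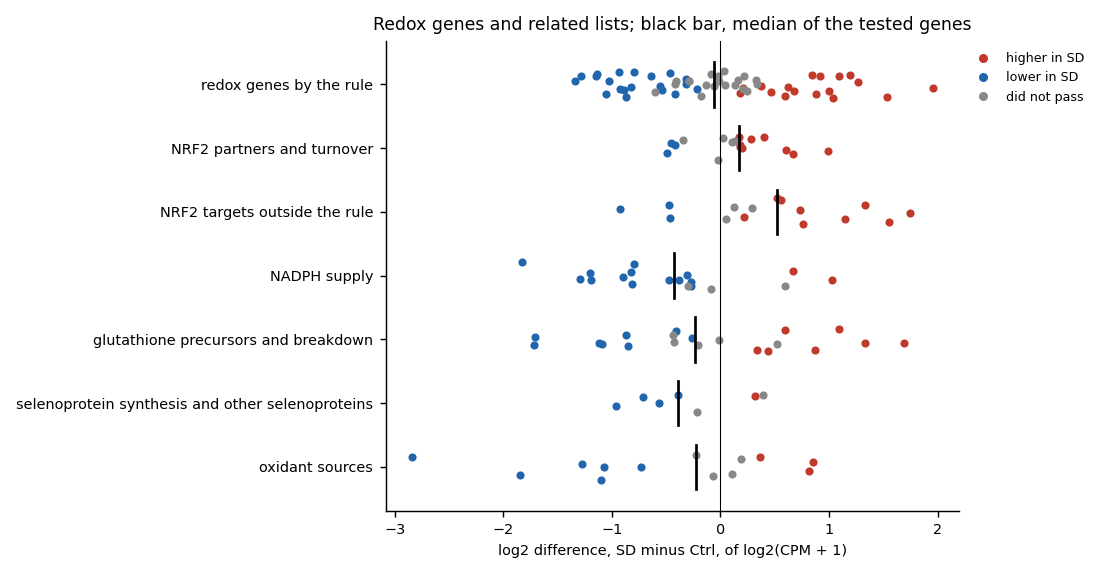
Each point is the log2 difference, SD minus Ctrl, of 1 tested gene in the redox set and in 6 related lists, coloured by call, and the black bar is the list median. The bar lies at 0.52 for the genes listed as NRF2 targets and at -0.43 for NADPH supply, while the redox genes spread to both sides around -0.06. Each median depends on which list a gene was put in.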

How the data were processed

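RNA of 6 mouse lung tumour libraries, 3 Ctrl and 3 SD, was read from 1 deposited table of CPM, 1 column per library, per the file headers. The submitters' processing notes name HISAT2 2.0.5, featureCounts 1.5.0-p3 and mm10, without settings or strand. The library kit was NEBNext Ultra on 1.5 ug of TRIzol RNA, per the labels' protocols. Values were multiples of 1 step per column, which gave library totals and whole reads for 61022 of 61146 values (99.8%, tolerance 0.01 read); the 50 genes with other values all lay in the first 60 rows. Precision is limited by 6511192 to 7417095 reads per library.

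The planned test for normalized values was used: limma 3.58.1, with a trend in the variance and only the group in the model, on log2 of CPM plus a pseudocount of 1, for the 10004 genes that reached 1 CPM in 3 libraries or more, with a Benjamini-Hochberg threshold of 0.05 over the whole table, first 60 rows included. Folds are ratios of mean CPM; log2 differences understate the change of low genes. Gene names and exon lengths came from GENCODE M21 on the same build. Alternatives to that fit were a pseudocount of 0.1 or 0.5 CPM, no filter, a minimum of 5 CPM, TMM scaling, edgeR 4.0.16 and DESeq2 1.42.0 on the recovered reads, the first 60 rows left out, the replicate block and each library left out.

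Members, roles, lists and alternatives were chosen with earlier results of these data known, and the grouping by location and selenocysteine after the values were seen. Values of every library are given for genes that passed with a log2 difference of at least 1 in size, the 2 genes of smallest p in each role and the core genes of the pathway; further members were given so after their values were seen. From each related list the 4 largest changes were named, with Fth1, Blvra, Ptgr1, Me3, Mthfd1l, Slc3a2 and Nox4 added after their values were seen. Metallothioneins were not analysed here, and the genotype of the mice is not reported here.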

Additional observations from a re-analysis of the deposited data

How the results depend on the processing

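The redox genes changed numbered 35 to 39 over all 15 alternatives, against 37, with 16 to 19 higher and 17 to 22 lower; those of each role and each related list stayed within 1.5 times the reported count. Over the runs that left out 1 library, 5032 to 5279 genes of the whole table changed, and 35 to 39 redox genes. Without a Ctrl library Glrx was below the filter. Of 848 pairs of a redox gene and an alternative, 825 kept direction and side of the threshold, 9 lost the call, 9 gained one and 5 changed sign. Those 5 were genes near 0 that passed in no run: Prdx6 without Ctrl replicate 1 (-0.004045; range with 1 library left out up to 0.07756), Sod2 without Ctrl replicate 2 (0.02773) or SD replicate 1 (0.002563; range from -0.083), and Txndc15 with DESeq2 (0.00492) or without SD replicate 3 (0.1226; range from -0.1029), as log2 differences; the cause was not tested. Replicate numbers did not pair the libraries (correlations of same-numbered deviations -0.00744, -0.0189 and 0.0124). With the replicate block 5603 genes changed in all and 38 redox genes, 17 higher and 21 lower, Mgst3 being added (adjusted p = 0.0479). On recovered reads edgeR called 5655 genes and DESeq2 5234, with 38 and 36 redox genes. TMM factors were 0.9971 to 1.003, and no setting moved the median of all genes by 0.1. Depth limits Gsto2, Gstm2, Glrx, Nqo1, Txndc17 and Txnrd3 most, each with at most 8 reads in its lowest library.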
